A study of Mus musculus with 4 samples.

Results

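The nuclear-encoded subunits of the mitochondrial respiratory chain were chosen by gene symbol. The members were the protein-coding genes whose symbols start with Ndufa, Ndufb, Ndufc, Ndufs or Ndufv (other than the Ndufaf assembly factors), Sdha to Sdhd, those starting with Uqcr, Cyc1, and those starting with Cox4 to Cox8 or Atp5. This gave 87 gene identifiers with 86 symbols among the 54232 genes of the table, with 36 members in complex I, 4 in complex II, 9 in complex III, 19 in complex IV, 17 in complex V and 2 associated factors. Ndufa4 and Ndufa4l2, named as complex I genes, were placed in complex IV, where the NDUFA4 protein is known to reside. A further 13 rows with the same symbol starts were pseudogenes or a non-coding gene and were left out.

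RNA of whole testes was sequenced from Dis3 conditional knockout mice (KO) and from control mice (WT), all of the strain given as B6D2F1 and all at postnatal day 17, with 2 libraries per genotype. The DIS3 protein is a catalytic ribonuclease of the nuclear RNA exosome, whose targets include short-lived non-coding transcripts. No source used here names the Cre line or the cells in which the gene was removed. The labels do not tie the libraries to separate animals, so each p-value measures a spread among libraries that may be technical. At this age the most advanced germ cells of the mouse testis are spermatocytes in meiotic prophase.

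Reads in genes numbered 17663416 and 19255782 in the KO libraries, against 31031920 and 40329170 in the WT libraries. Levels are given as CPM (read counts per 1000000 reads of the library size, scaled by the trimmed mean of M values, TMM), as KO replicates 1 and 2 and then WT replicates 1 and 2. Levels of different genes are compared only as CPM per kilobase of exon. Log2 fold changes are KO over WT, ± SE, from edgeR's quasi-likelihood test, with p-values adjusted over all 25076 tested genes by the Benjamini-Hochberg method, and a gene was called at an adjusted p under 0.05. Dis3 itself stood at 39.6 and 42.9 CPM in KO, against 80.2 and 80.7 CPM in WT, a log2 fold change of -0.96 ± 0.0729 (edgeR adjusted p = 2.34e-09). Reads were summed over all its exons, including those outside the deletion, and over all cells of the testis, whether or not they lost the gene. Background, the reads in regions upstream of genes too weak to be tested, stood at 3.01 and 3.39 reads per kilobase in KO, against 2.70 and 2.53 in WT, although the KO libraries held fewer reads.

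The respiratory chain passes electrons from NADH (complex I) and succinate (complex II) through ubiquinone to complex III, by cytochrome c to complex IV and so to oxygen. Complexes I, III and IV pump protons, and complex V, the ATP synthase, uses the gradient to make ATP. Most subunits are encoded in the nucleus and a few core subunits of complexes I, III, IV and V in mitochondrial DNA. Several complex IV subunits exist as isoforms encoded by separate genes. Cox6b2, Cox7b2 and Cox8c are isoforms made mainly in male germ cells, and Cox6b1, Cox7b and Cox8a are their widely expressed partners.

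The members were lower in KO testes as a group, by modest amounts. Of the 84 tested members, 66 fell and 0 rose, and the other 18 were not called. DESeq2 called 69 of 86 members lower and 0 higher, beside 5266 lower and 443 higher of all 48489 genes in its fit. At an unadjusted p under 0.05 by edgeR 0 members were higher. By edgeR, 20.3% of all tested genes were lower and 11.6% were higher in KO. Among the 16600 genes with at least 5 times the background reads, a level that all 84 tested members exceeded, 30.6% were lower and 8.45% were higher. For protein-coding genes at that level the shares were 34.1% and 9.11%. The members' share called lower was 78.6%. Their median log2 fold change was -0.37, beside 0.05 over all tested genes and -0.12 over the genes at 5 times background or more. Both KO libraries lay under both WT libraries in 77 of the 84 members, against 32.7% of all tested genes, and over them in 1 member, Cox7b, against 35.6%. The called members fell by 0.17 to 0.83 on the log2 scale, and 22 of them by 0.5 or more. A change of that size downwards was seen in 26.2% of tested members and in 9.82% of all tested genes.

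**Figure D1:**
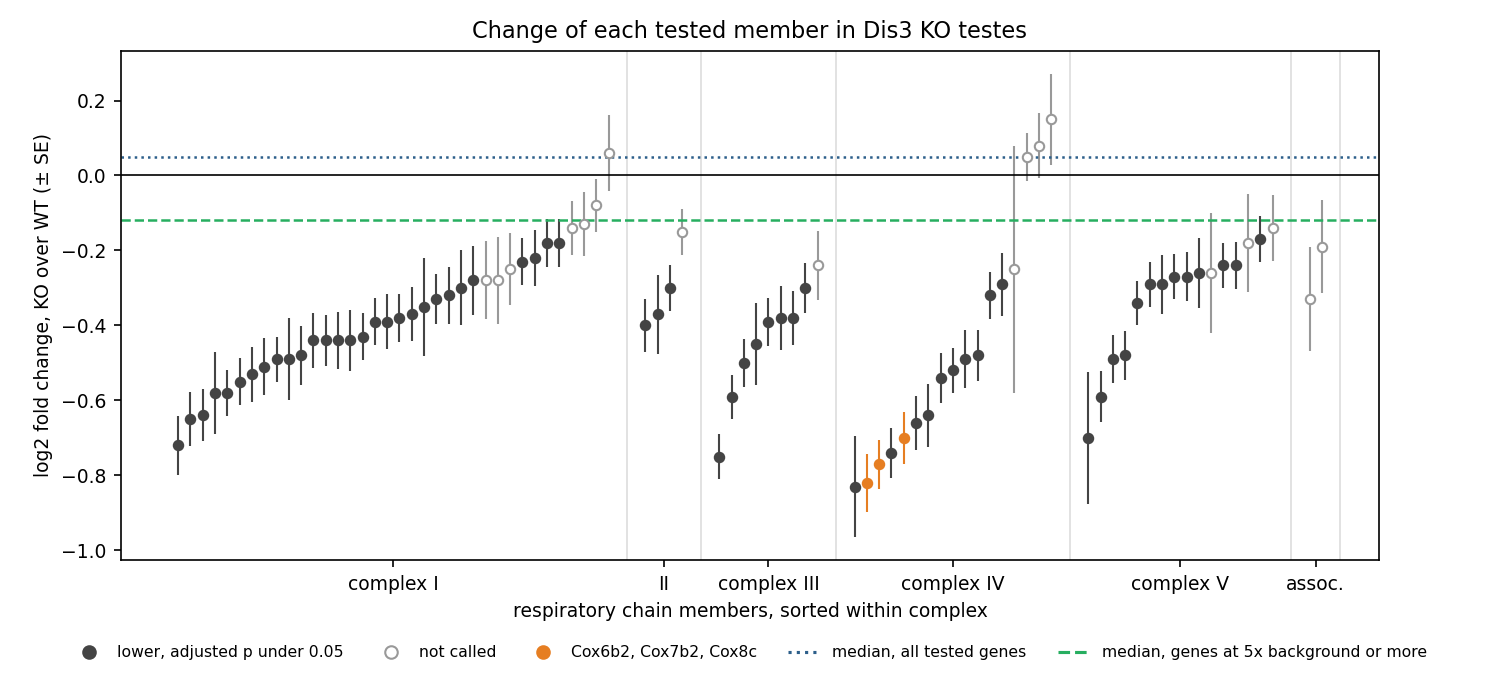
Log2 fold change (KO over WT, ± SE, 2 libraries per genotype) of each of the 84 tested members, sorted within complex. Filled points are the 66 members called lower and open points the 18 not called. The dotted and dashed lines are the medians of all tested genes (0.05) and of genes at 5 times background or more (-0.12). Most points lie under both lines. Complex IV holds the highest point, Cox7b, and the lowest, Ndufa4l2, which would count in complex I by its symbol.

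Markers of meiotic germ cells were also lower in the same libraries. Of 16 markers of pachytene spermatocytes, 15 were lower (median log2 fold change -0.85), and their summed level was 3924 and 3559.8 CPM in KO, against 5973 and 6201 CPM in WT. Acrbp, which encodes an acrosome protein, stood at 38.3 and 36.9 CPM in KO and at 80.4 and 85.1 CPM in WT. Of 15 markers of early meiotic cells, 13 were lower (median -0.44), with sums of 3438 and 3422 CPM in KO, against 4690.2 and 4836 CPM in WT. No marker of either list was at 0. For comparison, the summed level of the members was 8437 and 8318 CPM in KO, against 10893 and 11199 CPM in WT. In whole testes, fewer cells of a type and less RNA per cell cannot be told apart, and the part of the germ cell share in the fall of the members was not tested.

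Markers of other cell types moved in both directions. Of 30 Sertoli cell markers 9 rose and 1 fell (median 0.14), with sums of 10940.2 and 10556 CPM in KO, against 10099 and 10165 CPM in WT. That balance depended on the scaling, with 17 higher and 1 lower (median 0.25) after background subtraction with TMM anew. When libraries were scaled to these genes 2 were higher and 8 lower (median 0.02), but that scaling sets their median near 0 by construction. Of 10 spermatogonial markers 4 fell and 0 rose (median -0.22, sums 684 and 659 CPM in KO against 899 and 944 CPM in WT). Of 10 macrophage markers 9 rose and 0 fell (median 0.69, sums 299.7 and 293 CPM in KO against 183 and 180.1 CPM in WT). Among 8 Leydig cell markers 3 rose and 2 fell, among 6 peritubular myoid markers 1 rose and 1 fell, and among 6 endothelial markers 2 rose and 0 fell. Striated muscle is rich in mitochondria and has its own complex IV isoforms, and fat was counted as a tissue that can adhere to the testis. Of 9 adipose markers 5 were tested and 3 rose, among them Plin1, a lipid droplet protein, at 17.0 and 18.8 CPM in KO and 10.3 and 9.97 CPM in WT. KO replicate 2 stood apart in other fat genes, with 111 reads of Fabp4, 31 of Cfd and 25 of Cidec, against 38, 6 and 5 in KO replicate 1. Ucp1, the marker of brown fat, had 4 and 7 reads in KO, against 2 and 5 in WT. Of 13 striated muscle markers 12 were tested and 1 rose. The part of any of these lists in the members' change was not tested.

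The germ cell isoforms of complex IV were compared with their widely expressed partners. Cox6b2, Cox7b2 and Cox8c all fell, by 0.70 to 0.82 on the log2 scale. Among their partners Cox6b1 fell by less, and Cox7b and Cox8a did not pass the test. The coding sequences of each pair are shown because reads were assigned to these genes by sequence. They come from the GENCODE M21 annotation and the GRCm38 genome, and capitals mark the longest run that the partners share.
Cox6b2: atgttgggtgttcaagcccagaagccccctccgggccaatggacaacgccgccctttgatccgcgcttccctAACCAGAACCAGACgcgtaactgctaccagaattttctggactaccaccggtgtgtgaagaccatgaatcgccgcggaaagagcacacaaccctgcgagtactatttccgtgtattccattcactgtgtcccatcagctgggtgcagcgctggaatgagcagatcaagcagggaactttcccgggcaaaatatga
Cox6b1: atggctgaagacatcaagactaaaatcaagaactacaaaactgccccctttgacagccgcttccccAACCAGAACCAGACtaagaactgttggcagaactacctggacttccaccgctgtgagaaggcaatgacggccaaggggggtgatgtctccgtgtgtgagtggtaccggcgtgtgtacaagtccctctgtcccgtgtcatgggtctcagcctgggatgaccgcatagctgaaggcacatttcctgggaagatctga
Cox7b2: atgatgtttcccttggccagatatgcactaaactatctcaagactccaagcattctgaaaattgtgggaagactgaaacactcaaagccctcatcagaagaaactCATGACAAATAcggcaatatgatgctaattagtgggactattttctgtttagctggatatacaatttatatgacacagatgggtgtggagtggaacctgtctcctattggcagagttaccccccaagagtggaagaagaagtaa
Cox7b: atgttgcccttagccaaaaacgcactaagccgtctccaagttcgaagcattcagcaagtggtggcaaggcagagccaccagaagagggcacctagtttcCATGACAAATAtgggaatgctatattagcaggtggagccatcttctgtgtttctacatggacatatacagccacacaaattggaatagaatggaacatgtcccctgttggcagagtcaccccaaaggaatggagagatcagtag
Cox8c: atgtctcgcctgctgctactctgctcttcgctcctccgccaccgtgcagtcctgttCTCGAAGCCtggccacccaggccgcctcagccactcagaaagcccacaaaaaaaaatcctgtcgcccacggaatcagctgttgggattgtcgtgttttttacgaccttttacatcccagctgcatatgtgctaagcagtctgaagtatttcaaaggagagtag
Cox8a: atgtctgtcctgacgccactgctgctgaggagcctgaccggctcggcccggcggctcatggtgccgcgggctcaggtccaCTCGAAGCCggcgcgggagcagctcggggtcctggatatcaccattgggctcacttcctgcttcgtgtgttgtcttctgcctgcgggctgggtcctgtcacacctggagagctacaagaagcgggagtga

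The longest shared run was 14 bases for Cox6b2 and Cox6b1, 11 for Cox7b2 and Cox7b and 9 for Cox8c and Cox8a. In a global alignment 64.5%, 64.8% and 56.0% of columns were identical in these pairs. No window of 50 bases of Cox6b2, Cox6b1, Cox7b2, Cox8c or Cox8a transcripts occurred in the transcripts of another gene, and for Cox7b 0.516% of windows did.

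Cox7b2 (ENSMUSG00000049387, GRCm38 chromosome 5, 71442824 to 71548205) stood at 47.4 and 53.8 CPM in KO, against 85.0 and 94.2 CPM in WT. Both KO libraries lay well under both WT libraries, and the log2 fold change was -0.82 ± 0.0764 (edgeR adjusted p = 2.91e-08), a fall of 43.5%. Cox7b (ENSMUSG00000031231, chromosome X, 106015700 to 106022450), its partner, stood at 14.6 CPM in both KO libraries, against 12.2 and 14.0 CPM in WT. Its log2 fold change of 0.15 ± 0.121 did not pass the test (edgeR adjusted p = 0.350). Per kilobase of exon the isoform was 7.28 and 8.24 times as abundant as the partner in KO, against 15.5 and 15.1 times in WT.

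Cox8c (ENSMUSG00000043319, chromosome 12, 102899316 to 102900526) stood at 212 and 184 CPM in KO, against 342 and 334 CPM in WT. The groups did not overlap, and the log2 fold change was -0.77 ± 0.0657 (edgeR adjusted p = 1.07e-08). Per length Cox8c was the most abundant member in WT, at 746 and 730 CPM per kilobase, and it stood at 464 and 403 in KO, where Cox6a1 was higher in replicate 2 (510). Cox8a (ENSMUSG00000035885, chromosome 19, 7215158 to 7217616) stood at 102 and 111 CPM in KO, against 103 CPM in both WT libraries. The groups overlapped and the log2 fold change of 0.05 ± 0.0642 did not pass the test (edgeR adjusted p = 0.596). Its direction depended on the scaling, with -0.07 when libraries were scaled to Sertoli cell genes, and 0.18 (edgeR adjusted p = 0.0403) when background was subtracted and TMM factors were computed anew. The ratio of Cox8c to Cox8a per length was 2.48 and 1.98 in KO, against 3.95 and 3.85 in WT.

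Cox6b2 (ENSMUSG00000051811, chromosome 7, 4751792 to 4753094) stood at 90.9 and 86.0 CPM in KO, against 135 and 152 CPM in WT, with a log2 fold change of -0.70 ± 0.0683 (edgeR adjusted p = 5.61e-08). Cox6b1 (ENSMUSG00000036751, chromosome 7, 30616861 to 30626151) stood at 39.7 and 43.8 CPM in KO, against 47.4 and 54.5 CPM in WT. It fell by 0.29 ± 0.0842 on the log2 scale (edgeR adjusted p = 0.0114). That call was lost without WT replicate 2 (-0.20, edgeR adjusted p = 0.188) and after background subtraction with TMM anew (-0.16, edgeR adjusted p = 0.192). The ratio of Cox6b2 to Cox6b1 per length was 1.46 and 1.25 in KO, against 1.82 and 1.79 in WT.

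In each of the 3 pairs the isoform's share was lower in both KO libraries than in both WT libraries. The mean log2 ratio of isoform to partner was 2.95 ± 0.127 in KO and 3.94 ± 0.031 in WT for Cox7b2 over Cox7b, a difference of -0.98 (SD, n = 2 each). The difference was -0.82 for Cox8c over Cox8a and -0.41 for Cox6b2 over Cox6b1. An exact two-sided permutation test of the 4 libraries gave p = 0.333 for each pair, the smallest p that its 6 relabellings allow. These ratios lie within a library and so do not depend on how libraries are scaled.

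**Figure D2:**
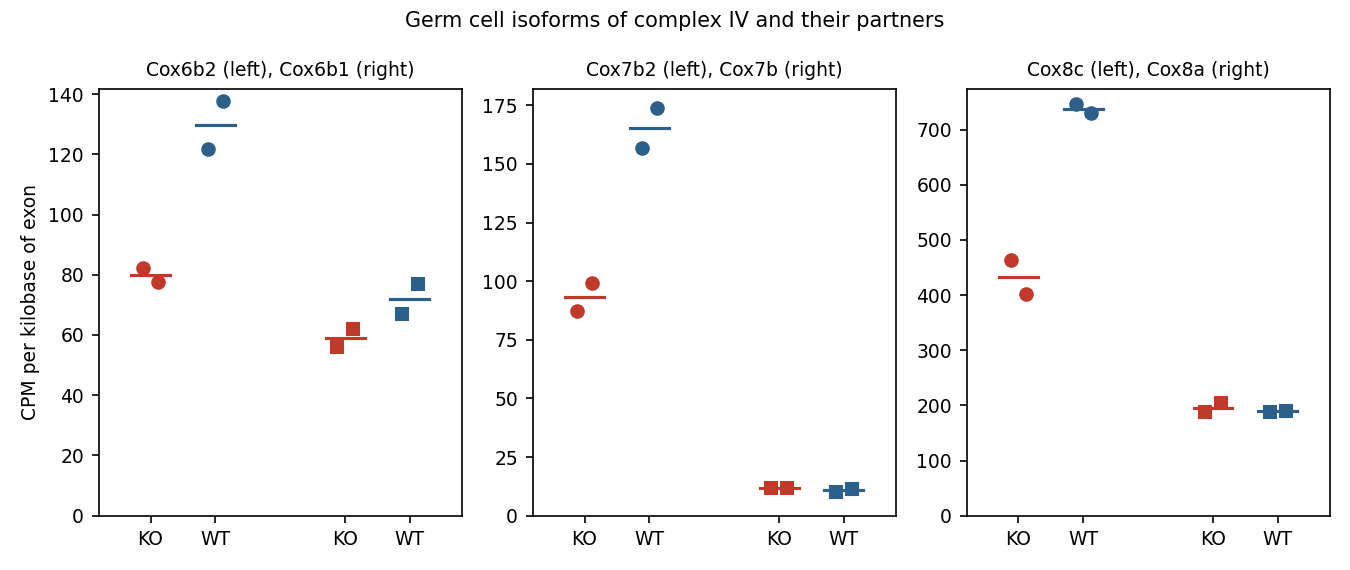
Level per kilobase of exon (CPM per kilobase, linear axes from 0) of the 3 germ cell isoforms of complex IV (circles, left) and their partners (squares, right) in KO and WT libraries, with lines at the mean of 2 libraries. Both KO points lie under both WT points for each isoform, while the KO points of Cox7b lie over and those of Cox8a around the WT points.

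Complex IV, cytochrome c oxidase, had the lowest median of the 5 complexes, -0.52, with 13 of 17 tested members lower and 0 higher. Without the 3 germ cell isoforms 10 of 14 were lower and the median was -0.49. With Ndufa4 and Ndufa4l2 counted in complex I by symbol, 12 of 15 members of complex IV were lower (median -0.52), and 30 of 38 of complex I (median -0.39). Cox7a2, the widely expressed form of subunit 7a, stood at 192 and 208 CPM in KO, against 312 and 354 CPM in WT, a log2 fold change of -0.74 ± 0.0667 (edgeR adjusted p = 2.47e-08). Its heart and muscle isoform Cox7a1 fell almost as far, with 52.5 and 47.4 CPM in KO, against 78.7 and 79.1 CPM in WT (-0.66 ± 0.0723, edgeR adjusted p = 2.65e-07). The Cox7a1 to Cox7a2 ratio per length overlapped between the groups, at 0.482 and 0.403 in KO and 0.445 and 0.394 in WT. Ndufa4l2, known as a hypoxia-induced relative of Ndufa4, was also lower, with 8.50 and 7.38 CPM in KO, against 13.8 and 14.3 CPM in WT (-0.83 ± 0.134, edgeR adjusted p = 4.50e-05). Ndufa4 itself stood at 34.2 and 33.7 CPM in KO, against 33.7 and 30.4 CPM in WT, with overlapping groups and no call (0.08 ± 0.0871, edgeR adjusted p = 0.478). That direction turned under scaling to Sertoli cell genes (-0.04). The Ndufa4l2 to Ndufa4 ratio per length was 0.314 and 0.277 in KO, against 0.517 and 0.594 in WT, again lower in both KO libraries (exact two-sided permutation p = 0.333, the smallest possible).

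The remaining isoform genes of complex IV separated by level. Cox4i1, the common form of subunit 4, stood at 205 and 207 CPM in KO, against 302 and 289.6 CPM in WT (-0.52 ± 0.0589, edgeR adjusted p = 4.35e-07). Its hypoxia-responsive relative Cox4i2 was scarce, at 1.26 and 1.70 CPM in KO, against 2.06 and 1.5 CPM in WT, and was not called (-0.25 ± 0.33, edgeR adjusted p = 0.588). Cox6a1, the liver-type form of subunit 6a, fell by 0.32 ± 0.0636 on the log2 scale, with 321 and 358 CPM in KO, against 412 and 434 CPM in WT (edgeR adjusted p = 4.73e-04). The muscle forms Cox6a2 and Cox8b did not pass the filter on low counts. Cox6a2 had 7 and 12 reads in KO, against 5 and 8 in WT, and Cox8b had 1 and 11 in KO, against 1 and 6 in WT. Cox7c, a single-form subunit, fell by 0.64 ± 0.0839 on the log2 scale, with 32.0 and 37.8 CPM in KO, against 54.6 and 54.1 CPM in WT. Of its 50-base windows 22.1% also occurred in other genes, and reads mapping to several places were not counted.

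Complex III, the cytochrome bc1 complex, was lower in 8 of 9 tested members, with a median of -0.39. Uqcrq, a small subunit next to cytochrome b, stood at 164 and 172 CPM in KO, against 281 and 283 CPM in WT (-0.75 ± 0.0593, edgeR adjusted p = 3.89e-09). The gap between the groups was many times the spread within them, and this was the smallest adjusted p of all members. The core subunit genes Uqcrc1 (240.1 and 250.3 CPM in KO, 366 and 370.1 CPM in WT, -0.59 ± 0.059) and Uqcrc2 (123 and 129 CPM in KO, 170.3 and 188 CPM in WT, -0.50 ± 0.0635) also fell. Uqcrfs1, the Rieske iron-sulfur protein, stood at 16.1 and 16.9 CPM in KO, against 20.6 and 24.2 CPM in WT (-0.45 ± 0.11, edgeR adjusted p = 0.00311), a call lost without WT replicate 2 (-0.34, edgeR adjusted p = 0.0759). Uqcr10 had the highest level per length in the complex, at 147 and 139.8 CPM per kilobase in KO and 187 and 189 in WT, and fell by 0.39 ± 0.0636 on the log2 scale. Uqcr11 did not pass the test (-0.24 ± 0.0926, edgeR adjusted p = 0.0507), although its groups did not overlap.

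Complex I, NADH dehydrogenase, was lower in 29 of 36 tested members, with 0 higher and a median of -0.39. Ndufa2, an accessory subunit, stood at 38.5 and 37.2 CPM in KO, against 59.3 and 64.9 CPM in WT (-0.72 ± 0.0777, edgeR adjusted p = 2.44e-07). Ndufc1, an accessory subunit of the membrane arm, stood at 80.9 and 75.4 CPM in KO, against 113 and 132 CPM in WT (-0.65 ± 0.0727, edgeR adjusted p = 4.74e-07). Ndufs6, which binds zinc and is needed late in assembly, stood at 57.3 and 63.1 CPM in KO, against 95.1 and 93.1 CPM in WT (-0.64 ± 0.0692, edgeR adjusted p = 2.16e-07). All 3 had KO libraries clearly under the WT libraries. Ndufb8 fell by 0.58 ± 0.11 on the log2 scale (40.3 and 54.7 CPM in KO, 70.5 and 72.0 CPM in WT, edgeR adjusted p = 0.0016). Its KO libraries differed from each other, and the log2 fold change was -0.41 without KO replicate 1 and -0.88 without KO replicate 2.

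The catalytic core of complex I followed the rest. The flavoprotein gene Ndufv1 stood at 81.6 and 78.7 CPM in KO, against 105 CPM in both WT libraries (-0.38 ± 0.0637, edgeR adjusted p = 5.85e-05). The iron-sulfur subunit genes Ndufs1 (-0.39 ± 0.0622), Ndufs7 (-0.49 ± 0.0603) and Ndufv2 (-0.58 ± 0.0615) fell as well. Ndufa8 had the highest level per length in the complex by the mean of all libraries, 95.8 and 97.4 CPM per kilobase in KO and 115 and 128 in WT, and fell by 0.33 ± 0.0673 on the log2 scale. The 7 members not called were Ndufa1, Ndufa3, Ndufa6, Ndufb6, Ndufb7, Ndufb11 and Ndufs5. Ndufa3 stood at 57.3 and 56.5 CPM in KO, against 59.7 and 60.3 CPM in WT (-0.08 ± 0.0705, edgeR adjusted p = 0.413), and Ndufs5 at 27.4 and 24.7 CPM in KO, against 27 and 22.9 CPM in WT (0.06 ± 0.101, edgeR adjusted p = 0.656). Ndufs5 turned to -0.06 under scaling to Sertoli cell genes, and 21.7% of its 50-base windows occurred in another gene.

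Complex II, succinate dehydrogenase, is encoded by nuclear genes alone, and 3 of its 4 genes fell, with a median of -0.33. Sdhb, the iron-sulfur subunit, stood at 59.8 and 59.4 CPM in KO, against 75.4 and 82.0 CPM in WT (-0.40 ± 0.0701, edgeR adjusted p = 1.05e-04). Sdha, the flavoprotein, stood at 203 and 184 CPM in KO, against 233 and 243 CPM in WT (-0.30 ± 0.0624, edgeR adjusted p = 6.85e-04). The membrane anchor Sdhd, the most abundant of the complex per length in WT, fell by 0.37 ± 0.105 on the log2 scale (56.4 and 74.0 CPM in KO, 80.6 and 88.0 CPM in WT, edgeR adjusted p = 0.0196). The KO libraries differed from each other, and the log2 fold change was -0.21 without KO replicate 1 and -0.64 without KO replicate 2. Its call was lost with a filter of 1 CPM (edgeR adjusted p = 0.0892) and after background subtraction with TMM anew (edgeR adjusted p = 0.154). The other anchor, Sdhc, was not called (-0.15 ± 0.0616, edgeR adjusted p = 0.0638).

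Complex V, the ATP synthase, had the smallest median fall of the complexes, -0.27, with 13 of 16 tested members lower and 0 higher. After background subtraction with TMM anew 6 of the 16 were lower, with a median of -0.16. The genes for the alpha and beta subunits of the catalytic head, Atp5a1 (672 and 623 CPM in KO, 743 and 713 CPM in WT) and Atp5b (445 and 462 CPM in KO, 517 and 554 CPM in WT) fell by 0.17 ± 0.062 and 0.24 ± 0.0609 on the log2 scale. Both calls were lost without WT replicate 2 (edgeR adjusted p = 0.12 and 0.124), and that of Atp5a1 also without WT replicate 1 (edgeR adjusted p = 0.133) and with a filter of 1 CPM (-0.10, edgeR adjusted p = 0.173). After background subtraction with TMM anew neither was called, at -0.04 for Atp5a1 (edgeR adjusted p = 0.678) and -0.11 for Atp5b (edgeR adjusted p = 0.167). Atp5c1, the gamma subunit and the most abundant of the complex per length, fell by 0.27 ± 0.06 on the log2 scale, and its edgeR adjusted p was 0.00133. The call was lost without WT replicate 2 (-0.24, edgeR adjusted p = 0.0595) and after background subtraction with TMM anew (-0.14, edgeR adjusted p = 0.068).

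The 4 called members of complex V with the largest falls were Atp5e, Atp5k, Atp5o and Atp5mpl, while other small subunits, such as Atp5j (-0.27), Atp5j2 (-0.29) and Atp5l (-0.14, not called), lay near or above the complex median. Atp5e, the epsilon subunit of the rotor stalk, stood at 18.1 and 24.7 CPM in KO, against 29.8 and 39.6 CPM in WT (-0.70 ± 0.176, edgeR adjusted p = 0.0192), and lost its call with a filter of 1 CPM (edgeR adjusted p = 0.0603). Atp5k, subunit e of the membrane part, stood at 83.9 and 74.6 CPM in KO, against 119.7 and 119 CPM in WT (-0.59 ± 0.0674, edgeR adjusted p = 4.49e-07). Atp5mpl, a small proteolipid of the complex, fell by 0.48 ± 0.0665 on the log2 scale, with 84.3 and 92.5 CPM in KO and 119 and 127 CPM in WT. Atp5o, the stalk subunit that confers oligomycin sensitivity, fell by 0.49 ± 0.0635 on the log2 scale, but 41.6% of its windows occurred in other genes. The second identifier with the symbol Atp5o had 0 reads in all 4 libraries. The 3 genes for the proton-carrying c subunit, which encode the same mature protein, had log2 fold changes of -0.26 ± 0.0942 for Atp5g1 (edgeR adjusted p = 0.0374), -0.26 ± 0.159 for Atp5g2 (0.209) and -0.18 ± 0.13 for Atp5g3 (0.319). The Atp5g1 call was lost without KO replicate 1 (0.0947), without WT replicate 2 (0.239), with a filter of 1 CPM (-0.19, 0.105) and after background subtraction with TMM anew (-0.16, 0.224). Atp5g2 was called without KO replicate 2 (0.0208), and Atp5g3 was called without KO replicate 2 (2.14e-04) or WT replicate 1 (0.00116). The associated factors Atp5s (-0.33 ± 0.139) and Cox7a2l (-0.19 ± 0.124), the second a supercomplex assembly protein, were not called.

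Of the 3 members on the X chromosome, which is silenced in pachytene spermatocytes, 0 were called by edgeR and 1 was lower by DESeq2, and 1 was lower by edgeR at an unadjusted p under 0.05. Cox7b is given above. Ndufa1 stood at 22.7 and 26.7 CPM in KO, against 29.0 and 29.7 CPM in WT (-0.25 ± 0.0962, edgeR adjusted p = 0.0522). With a library left out its log2 fold change ranged from -0.42 (without KO replicate 2) to -0.16 (without KO replicate 1). Ndufb11 stood at 29.7 and 29.8 CPM in KO, against 32.3 and 32.7 CPM in WT (-0.13 ± 0.0859, edgeR adjusted p = 0.259). Under scaling to Sertoli cell genes 2 of the 3 were called lower, Ndufa1 (-0.37, edgeR adjusted p = 0.00372) and Ndufb11 (-0.25, edgeR adjusted p = 0.0241). Ndufa1 was also called with median-of-ratios scaling, no filter or the replicate block (edgeR adjusted p = 0.0394, 0.0181 and 0.0259), but not with a filter of 1 CPM (0.139). Under either background subtraction 0 of the 3 were called.

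Genes that work with the members were counted in the same way, none of them members themselves. Of 53 tested assembly factor genes 26 were lower and 0 higher, with a median of -0.29, and 17 were lower after background subtraction with TMM anew (median -0.17). Ndufaf3, a complex I assembly factor, stood at 66.7 and 68.1 CPM in KO, against 113 and 119 CPM in WT (-0.79 ± 0.0652, edgeR adjusted p = 6.91e-09). Uqcc2, which aids cytochrome b synthesis, stood at 54.9 and 48.7 CPM in KO, against 80.6 and 82.1 CPM in WT (-0.65 ± 0.0731, edgeR adjusted p = 3.58e-07). By complex, 9 of 18 assembly genes for complex I were lower, 2 of 4 for complex II, 3 of 6 for complex III, 10 of 22 for complex IV and 2 of 3 for complex V.

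Cytochrome c, which carries electrons between complexes III and IV, has a testis form and a somatic form. Cyct, the testis form, stood at 150.4 and 140.1 CPM in KO, against 222 and 235 CPM in WT (-0.65 ± 0.0617, edgeR adjusted p = 3.70e-08). Cycs, the somatic form, stood at 59.7 and 57.5 CPM in KO, against 62.8 and 53.3 CPM in WT, with overlapping groups (0.02 ± 0.0796, edgeR adjusted p = 0.902).

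Of 11 genes for regulators of respiratory genes, 1 was lower and 0 were higher, with a median of -0.10. That count depended on the method, with 3 lower by DESeq2, 6 lower under scaling to Sertoli cell genes (median -0.22) and 0 lower after background subtraction with TMM anew (median 0.02). Nrf1, a factor that binds the promoters of many respiratory genes, stood at 47.6 and 47.3 CPM in KO, against 46.4 and 49.7 CPM in WT. Tfam, which packages and transcribes mitochondrial DNA, stood at 46.5 and 40.1 CPM in KO, against 45.8 and 42.4 CPM in WT. The called gene was Tfb1m, which methylates mitochondrial ribosomal RNA, at 16.0 and 15.4 CPM in KO, against 19.2 and 20.2 CPM in WT (-0.33 ± 0.107, edgeR adjusted p = 0.0221), and the call was lost without WT replicate 2 (0.125), with a filter of 1 CPM (0.0551) and after background subtraction with TMM anew (0.122).

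Of 13 tricarboxylic acid cycle genes 8 were lower and 0 higher (median -0.21), or 4 lower and 0 higher after background subtraction with TMM anew (median -0.08), among them Idh3b, a subunit of isocitrate dehydrogenase, at 65.3 and 64.8 CPM in KO, against 85.4 and 85.1 CPM in WT. Of the 13 subunits encoded in mitochondrial DNA, 0 were lower and 0 higher by edgeR or by DESeq2 (0 lower and 1 higher at an unadjusted p under 0.05 by edgeR), with a median of 0.06 that became -0.06 under scaling to Sertoli cell genes. Their summed level was 41359.5 and 29532 CPM in KO, against 34694.5 and 32981 CPM in WT. The KO libraries thus lay on either side of the WT libraries, and without KO replicate 2 the number of these subunits called higher was 8. Whether the change of nuclear and mitochondrial genes differed was not tested.

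**Figure D3:**
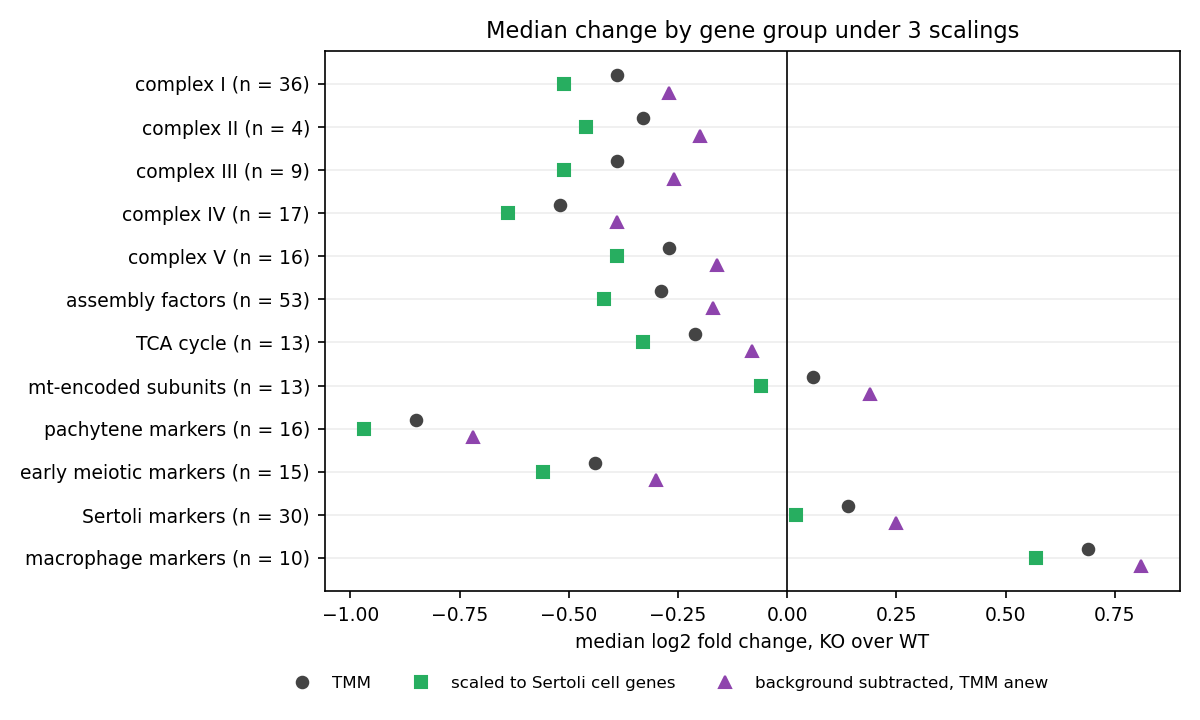
Median log2 fold change (KO over WT) of the tested genes of each group under TMM scaling (circles), scaling to Sertoli cell genes (squares) and background subtraction with TMM computed anew (triangles). The 5 complexes lie between -0.52 and -0.27 under TMM scaling, above the pachytene markers at -0.85 and under the subunits encoded in mitochondrial DNA at 0.06.

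The median of the members was negative under each scaling tried, while the number called varied. With libraries scaled to Sertoli cell genes, which puts the median of all tested genes at -0.07, 76 of the 84 members were lower and 0 higher (median -0.50). Of all 25076 tested genes 7137 were then lower and 1821 higher, and of the 16600 at 5 times background or more 7117 and 650. With background subtracted and the library scale kept, 66 members were lower and 0 higher (median -0.39), beside 5428 lower and 1204 higher of 19926 genes. With background subtracted and TMM computed anew, 48 members were lower and 1, Cox8a, was higher (median -0.25, beside 0.00 over the 20101 genes then tested). Of those 20101 genes 3407 were lower and 2495 higher. The 3 germ cell isoforms were called lower in all 12 alternatives tried.

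Promoter windows of the members were read from RefSeq (GRCm38.p6, 250 bases before to 50 after the start) for the 63 members whose start lay within 500 bases of the deposited gene start. Letter motifs of factors known for respiratory genes were searched on both strands. The NRF1 motif, spelled out in capitals in the Uqcrc1 window shown next, was in 6.35% of these windows, and in 1.84% of the windows of 11815 tested protein-coding genes. The ETS motif CCGGAAG, bound by GABP, was in 23.8% and 15.4% of the same windows. The YY1 motif ATGGCGGC was in 9.52% and 4.06%, the CRE motif TGACGTCA in 6.35% and 2.95%, and the SP motif GGGCGG in 39.7% and 58.5%. No window shown holds more than 1 of these motifs, and the members with the NRF1 motif were Atp5k, Cox6a1, Ndufa11 and Uqcrc1.

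Windows are shown for 2 isoform pairs and for a member with an NRF1 match and a member with a YY1 match, both called lower, with motif letters in capitals and coordinates on GRCm38.
Cox6b2, chr7:4753045-4753344, minus strand: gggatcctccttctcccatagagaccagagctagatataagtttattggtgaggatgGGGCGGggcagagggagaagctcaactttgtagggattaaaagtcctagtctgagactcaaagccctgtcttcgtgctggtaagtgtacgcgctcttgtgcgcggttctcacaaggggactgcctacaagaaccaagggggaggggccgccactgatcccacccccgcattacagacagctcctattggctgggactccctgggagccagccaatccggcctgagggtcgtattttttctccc
Cox6b1, chr7:30626065-30626364, minus strand: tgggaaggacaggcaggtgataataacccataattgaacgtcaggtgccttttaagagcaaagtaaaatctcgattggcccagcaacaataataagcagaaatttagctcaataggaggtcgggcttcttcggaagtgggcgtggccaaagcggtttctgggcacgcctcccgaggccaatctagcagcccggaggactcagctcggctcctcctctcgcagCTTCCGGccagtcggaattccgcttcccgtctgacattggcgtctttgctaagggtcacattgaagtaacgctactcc
Cox7b2, chr5:71548156-71548455, minus strand: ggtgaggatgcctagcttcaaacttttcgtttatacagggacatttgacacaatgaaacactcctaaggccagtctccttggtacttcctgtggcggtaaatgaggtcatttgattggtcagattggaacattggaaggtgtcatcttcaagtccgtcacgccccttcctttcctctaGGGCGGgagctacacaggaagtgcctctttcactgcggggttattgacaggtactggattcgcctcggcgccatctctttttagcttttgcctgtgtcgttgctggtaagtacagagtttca
Cox7b, chrX:106015450-106015749, plus strand: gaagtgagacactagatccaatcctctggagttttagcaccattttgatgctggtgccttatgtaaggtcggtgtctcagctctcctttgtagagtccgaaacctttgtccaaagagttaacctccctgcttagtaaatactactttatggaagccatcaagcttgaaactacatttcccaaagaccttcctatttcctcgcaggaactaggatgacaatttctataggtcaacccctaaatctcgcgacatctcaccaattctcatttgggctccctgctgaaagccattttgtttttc
Uqcrc1, chr9:108936398-108936697, plus strand: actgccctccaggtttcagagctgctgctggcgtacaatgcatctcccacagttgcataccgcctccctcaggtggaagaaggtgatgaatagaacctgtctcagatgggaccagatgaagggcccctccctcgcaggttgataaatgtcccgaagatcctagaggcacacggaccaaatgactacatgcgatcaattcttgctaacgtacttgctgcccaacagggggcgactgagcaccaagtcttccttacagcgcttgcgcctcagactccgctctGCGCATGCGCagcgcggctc
Ndufs6, chr13:73328433-73328732, minus strand: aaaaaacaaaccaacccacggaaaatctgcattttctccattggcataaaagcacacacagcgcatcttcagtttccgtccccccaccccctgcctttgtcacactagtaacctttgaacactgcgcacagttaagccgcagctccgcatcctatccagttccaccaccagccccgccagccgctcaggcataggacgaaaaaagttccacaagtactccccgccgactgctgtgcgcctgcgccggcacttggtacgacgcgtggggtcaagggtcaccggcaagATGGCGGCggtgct

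The capitals are SP matches in Cox6b2 (from base 58 of the window) and Cox7b2 (from base 179), the reverse complement of the ETS motif in Cox6b1 (from base 223), the NRF1 motif in Uqcrc1 (from base 281) and the YY1 motif in Ndufs6 (from base 287). Cox7b had none of the 5 motifs in its window and had the lowest number of CpG dinucleotides of these 6 windows, 5. A match is a description of letters and says nothing of binding. Cox8c is named only. Motif shares among members called lower and not called were 8.33% and 0.00% for NRF1, 20.8% and 35.7% for ETS and 12.5% and 0.00% for YY1, with 48 and 14 windows. The remaining window belonged to an untested member.

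The deposited tables also count reads in the 3000 bases upstream of genes, where short-lived transcripts removed by the exosome are known to arise. Such regions were listed for 38 members. On the strand opposite to the gene, 36 were tested, of which 5 rose and 0 fell, beside 11.5% higher and 0.113% lower among all 18596 tested regions. The median log2 fold change was 1.01 for members and 1.01 for all regions, so the members did not stand apart by it. Autosomal background was itself 9.04 and 10.2 reads per region in KO, against 8.11 and 7.59 in WT, although the KO libraries are smaller. Only 6 of the 38 member regions on this strand held at least 5 times background. The part of the background shift in the medians of either strand was not tested. The largest rise lay upstream of Cox5b (GRCm38 chromosome 1, 36688449 to 36691448), with 83 and 57 reads in KO, against 20 and 21 reads in WT, although the KO libraries are smaller (2.57 ± 0.337, edgeR adjusted p = 6.67e-04). Those of Cyc1 (26 and 43 reads in KO, 18 and 7 in WT, 2.20 ± 0.494, edgeR adjusted p = 0.0171) and Cox7b2 (20 and 17 reads in KO, 9 and 8 in WT, 1.89 ± 0.57, edgeR adjusted p = 0.0451) also rose.

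The upstream regions of Cox5a (47 and 36 reads in KO, 31 and 29 in WT) and Ndufs5 (95 and 62 reads in KO, 60 and 62 in WT) completed the 5. When set against each library's own background, the KO and WT values of Cox5a (5.20 and 3.53 times in KO, 3.82 times in both WT libraries) and of Ndufs5 (10.5 and 6.08 times in KO, 7.40 and 8.17 times in WT) overlapped. Those of Cox5b did not (9.18 and 5.59 times in KO, 2.47 and 2.77 times in WT), nor did those of Cyc1 (2.88 and 4.22 times in KO, 2.22 and 0.922 times in WT). The values of Cox7b2 also separated but lay near the background, at 2.21 and 1.67 times in KO and 1.11 and 1.05 times in WT. Of the 5 called regions 2 held 5 times background or more, and 19 of the 38 regions on this strand held less than 2 times. The number of member regions called higher was 2 without KO replicate 1, 3 without KO replicate 2 and 10 without WT replicate 1, and it was 1 when the upstream table was scaled on itself. The genes themselves moved the other way in Cox5b, at 98.7 and 86.7 CPM in KO and 134 CPM in both WT libraries (-0.54 ± 0.067), and in Cyc1, at 35.6 and 42.8 CPM in KO and 52.4 and 50 CPM in WT (-0.38 ± 0.0857). Cox7b2 (-0.82) and Cox5a (-0.48) were called lower too, and Ndufs5 was not called (0.06). A fall was called in 78.6% of all tested members, so that direction is not particular to genes with a raised upstream region. The log2 fold change of the Cyc1 gene was -0.28 without KO replicate 1 and -0.58 without KO replicate 2.

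On the strand of the gene, 32 regions were tested and 0 were called by edgeR, beside 0.0544% higher and 0.00544% lower among all 18393 tested regions. At an unadjusted p under 0.05 by edgeR, 4 member regions were lower and 9 higher. The share of all tested regions under that unadjusted threshold was not counted. The median was 0.66 for members and 0.93 for all. Most held few reads, and 26 of the 38 had less than 2 times background. The region upstream of Cox8c (chromosome 12, 102896316 to 102899315) held the most, 1598 and 1313 reads in KO, against 4340 and 5148 in WT (-0.90 ± 0.158, edgeR adjusted p = 0.0613). These were 41.3% and 34.6% as many as in the gene in KO, and 43.0% and 40.6% in WT. Upstream of Cox5a the counts were 524 and 677 in KO, against 1186 and 1516 in WT, and upstream of Cox7b2 131 and 137 in KO, against 281 and 458 in WT. Those 2 regions had edgeR adjusted p = 0.123 and 0.078. In CPM, the KO libraries of all 3 lay under the WT libraries, as for the genes. The 3 are among 5 member regions on this strand with at least 5 times background. Of these 5, that of Atp5g3 overlapped between the groups, at 2.14 and 1.12 CPM in KO and 1.76 and 2.16 CPM in WT (-0.29 ± 0.341, edgeR adjusted p = 0.547). The share of all tested regions that separate in this way was not counted. The count of regions called lower ranged from 1 to 3 when a library was left out, and was 3 without WT replicate 1. The count called higher was 4 without WT replicate 1 and 0 when any of the other libraries was left out.

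**Figure D4:**
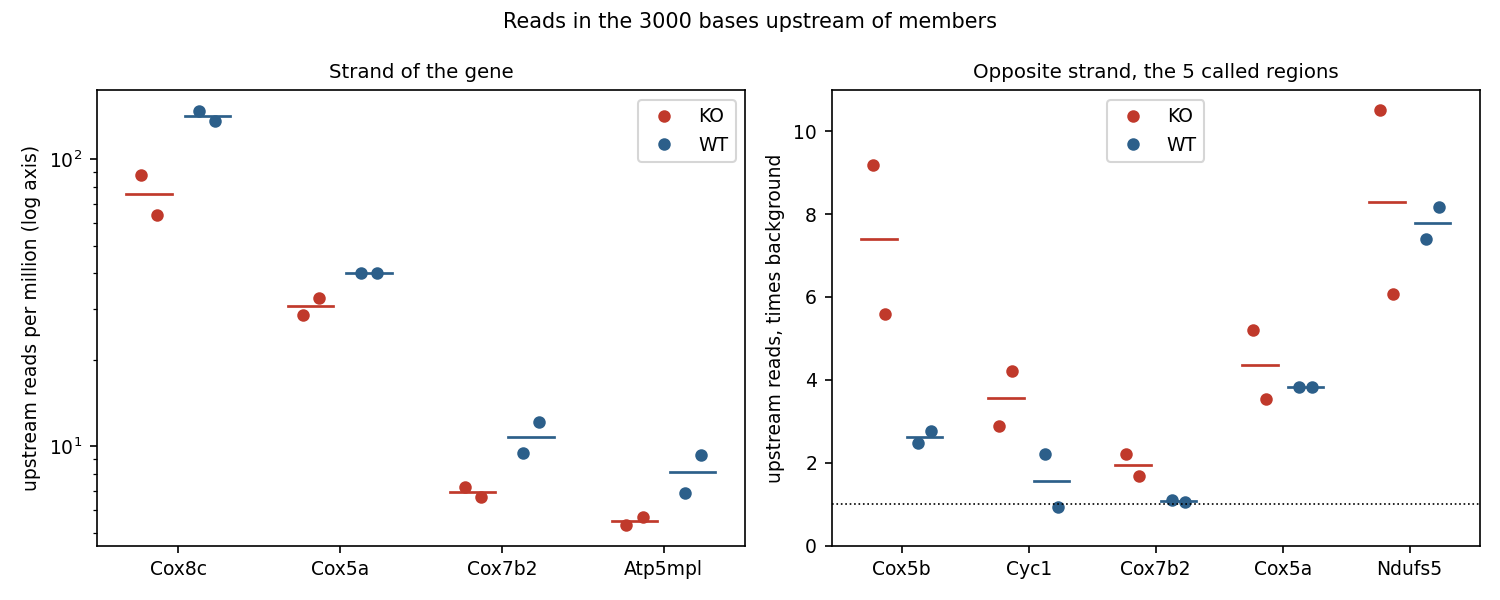
Reads in the 3000 bases upstream of members. Left, CPM on the strand of the gene (log axis) for Cox8c, Cox5a, Cox7b2 and Atp5mpl, with each KO point under each WT point. Atp5g3, whose groups overlapped on that strand, is not drawn. Right, reads on the opposite strand in multiples of each library's background (dotted line at 1) for the 5 regions called higher in KO, where Cox5b, Cyc1 and Cox7b2 separate and Cox5a and Ndufs5 overlap. Lines are means of 2 libraries.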

How the data were processed

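The authors deposited raw read counts, made with featureCounts 1.6.4 per the file headers. Per the file headers, genes were counted by exons on the gene's strand with GENCODE M18, and regions of 3000 bases upstream on the same and the opposite strand. The commands recorded there hold no option for multi-mapping reads, which were therefore left out. Trimming and mapping tools named per the submitters' processing notes are cutadapt and HISAT2, with the build GRCm38.p5 and versions of cutadapt and HISAT2 not given in the sources used. Per the labels' protocols, priming used both random and poly(T) primers, and the kit kept strand. Symbols came from GENCODE M21, which matched 99.88% of gene identifiers.

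Groups and replicate numbers came from the sample titles. Counts were tested with edgeR 4.0.16 (R 4.3.3; filterByExpr, TMM, robust quasi-likelihood fit, genotype as the single term) on the whole table. The SE is the log2 fold change divided by the square root of the F statistic. Upstream regions were tested with the library sizes and TMM factors of the gene table. TMM factors were 1.036 and 1.074 in KO, and 0.9547 and 0.942 in WT. Gene reads ranged from 17663416 to 40329170 per library. Background was a mean of reads, trimmed by a fraction of 0.25 on either side, over 14248 autosomal upstream regions whose genes were not tested. The edgeR procedure was also run on simulated counts in which 200 genes changed, in both directions. The simulation held no background shift and far fewer changed genes than these libraries, so it does not test the calls under those conditions.

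Members and gene lists were chosen with earlier results of these data known. A rule chose genes to name: the isoform genes, up to 4 called members per complex with the largest change, the most abundant member of each complex, members on the X chromosome, up to 3 called genes per direction of each other list and called upstream regions. Only some of the genes it chose from the other lists are named, such as Acrbp alone of the pachytene markers. Other genes, among them Ndufs5, Ndufa3, Ndufv1, Atp5a1, Cox7c, Nrf1 and Cycs, were named after their values were seen. As alternatives, the fit was repeated with DESeq2 1.42.0, with scaling by median ratios or by 30 Sertoli cell genes, without a filter or keeping genes at 1 CPM in at least 2 libraries, with the replicate number as a block, with each library left out, with background subtracted under the old scale or TMM anew, and, upstream, with those tables scaled on themselves.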

Additional observations from a re-analysis of the deposited data

How the results depend on the processing

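The number of members lower ranged from 48 (background subtracted, TMM anew) to 76 (scaling to Sertoli cell genes), with 0 higher except 1 under background subtraction with TMM anew, which also gave 1 higher in complex IV and 6 lower in complex V. The members' median was -0.48 with DESeq2, -0.50 with Sertoli scaling, -0.44 with no filter, -0.31 with a filter of 1 CPM and -0.25 with TMM anew. With a library left out it ranged from -0.44 to -0.37, with 57 to 68 members lower. Cox6b1 ranged from -0.42 to -0.20 with a library left out and was -0.16 under TMM anew, where Cox8a was 0.18. The log2 difference of Cox7a1 and Cox7a2 turned to -0.05 without KO replicate 1 and to -0.01 without WT replicate 2, and was at most 0.21 with a library left out (without KO replicate 2).

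Of the other genes of oxidative phosphorylation 36 were lower and 0 higher, with 22 lower under TMM anew. The count higher was 2 with no filter, 1 with a filter of 1 CPM, 3 with the replicate block and 2 under TMM anew, and 1 to 8 with a library left out. On the gene's strand, member regions called lower numbered 3 with the upstream table scaled on itself and 1 with no filter, and 1 to 3 with a library left out. Those called higher numbered 2 with no filter and 0 to 4 with a library left out. On the opposite strand, scaling the table on itself gave 1 lower and 1 higher, and leaving out a library 2 to 10 higher.

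Deviations of same-numbered libraries correlated at -0.00826 over 25076 genes, and at 0.058 over the 15180 genes with an average log2 CPM above 1. With 2 libraries per genotype these values cannot settle whether the replicate numbers pair the libraries. With the replicate block 72 members were lower and 0 higher (median -0.38), and on the gene's strand 2 upstream regions were lower and 4 higher. The causes of these differences between settings were not tested. With 2 libraries per genotype, the exact permutation test of a ratio could not go below p = 0.333, and genes of few reads, such as Cox4i2, had wide errors.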
